A study of Mus musculus with 6 samples.

Results

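Genes of the pancreas were followed in mouse spleen with and without total body irradiation (TBI). The set held 43 genes chosen by symbol, of 34741 gene names on the array: 14 acinar proteases, 9 lipases, amylases and nucleases, 6 granule proteins and inhibitors, 4 acinar factors and metabolic genes, 2 ductal and mucosal genes, 2 regenerating genes and 6 islet hormones. Each of the 43 had a probe, and 42 passed a filter on dim probes and were tested among 26652 genes. The exception, Ppy, stayed near background on each array. The mice were of the strain B10.BALB-16.C2A, in both groups. The irradiated group received 900 cGy from an X-ray irradiator and was sampled 24 h later, and the unirradiated group (0 cGy) was taken from resting mice. Each group had 3 samples, each pooled from 3 mice, so that the spread reported here is between pools and the differences between single mice are averaged out.

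The exocrine pancreas is made mostly of acinar cells, which store digestive enzymes as inactive precursors in zymogen granules and release them into the ducts. Their genes are switched on by a small set of transcription factors, among them Ptf1a, its partner Rbpjl and Bhlha15 (Mist1). Islets are the endocrine part and make insulin, glucagon, somatostatin, pancreatic polypeptide and amylin. In the mouse the tail of the pancreas lies against the spleen.

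Each value below is a log2 signal with the array's own 75th percentile set to 0, and a difference of 1 is a doubling. The 75th percentile signal was between 1114 and 1403, between 39048 and 41283 probes per array were well above background, and no probe was saturated on any array. The labelled tissue was borne out by its markers: all 12 spleen markers were tested, and the B cell receptor component Cd79a stood between 5.52 and 5.69 in unirradiated pools and between 2.66 and 2.90 in irradiated ones. Of the 12, 6 rose, led by Cd5l (log2 change 2.75), a macrophage protein, and 6 fell, among them Cd79a (-2.82). The summed linear level of the 12, in units of the array's 75th percentile, was 749 to 825 in unirradiated and 874 to 910 in irradiated pools. The globin gene Hba-a1 weighed most in it, at 8.61 to 8.94 in unirradiated and 7.80 to 8.18 in irradiated pools. The sum thus follows a few bright probes and not the 12 markers alike.

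Pancreas genes other than islet hormones were higher after irradiation, and the islet hormones did not move with them. Of the 42 tested genes 37 rose, 1 (Iapp) fell and 4 did not pass (Amy2a5, Ins1, Ins2 and Sst), with limma's moderated test at an adjusted p under 0.05. Over all genes tested, 28.3% rose and 31.0% fell, or 7537 and 8257 genes. With spike-in scaling, which shifted the median of all genes to -0.34, these were 4800 and 10878, and 37 pancreas genes rose again. The median log2 change was 6.38 for the 42 genes and -0.06 for all genes. Of the 37 genes other than islet hormones 36 rose, and in all 37 the lowest irradiated pool lay above the highest unirradiated pool, a separation that 31.7% of all genes showed. Their fitted changes ran from 0.65 (Gatm) to 8.32 (Cela2a), the latter with a value near background in unirradiated pool 1. The signal of bulk tissue cannot tell more cells of a type from more RNA per cell, or RNA made in the spleen from RNA of pancreas cells in the same sample.

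**Figure D1:**
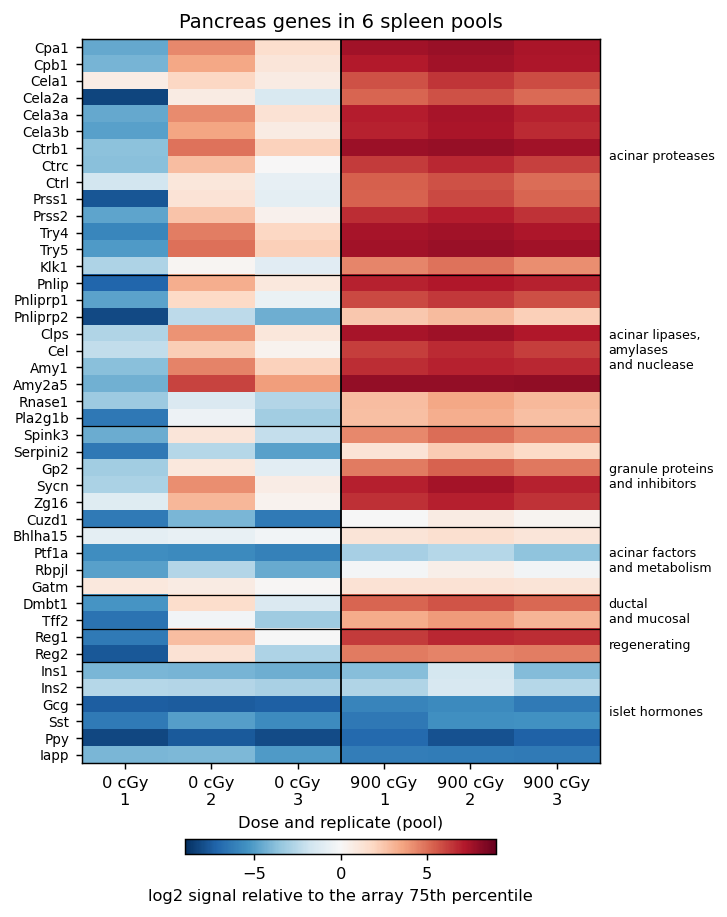
Log2 signal over the array's 75th percentile (colour) for the 43 pancreas genes (rows, by class) in the 3 unirradiated (0 cGy) and 3 irradiated (900 cGy) pools (columns); values of probes not well above background are drawn as measured. The irradiated columns are alike for the enzyme genes, the unirradiated columns differ strongly from each other, and the islet rows show neither pattern.

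The unirradiated pools were far from alike. For the 33 secreted, granule, ductal and regenerating genes, pool 2 was the highest, pool 3 in the middle and pool 1 the lowest without exception, an order that 11.0% of all genes had. The range between those 3 pools had a median of 6.90 log2 units over the 33 genes, against 0.33 over all genes, and went from 1.22 (Cela1) to 10.49 (Try4). Among the irradiated pools the same genes had a median range of 0.54, against 0.18 over all genes, and pool 2 was the highest for 31 of the 33, where it was the highest for 32.5% of all genes. In lists described below it was the highest for 13 of 16 further acinar, 9 of 14 duct, 8 of 10 adipocyte and 6 of 7 mesothelium genes. It was so for 4 of 8 liver, 8 of 19 further islet and 3 of 11 plasma cell genes, 1 of 12 spleen markers and none of 4 other Reg genes. An unirradiated range of 4 log2 units or more was seen for 33 genes of the 26652 (0.124%). Of these, 27 belong to the pancreas set, 3 to the further lists of Reg and acinar genes described below, and 3 to neither. The 33 secreted genes share the tissue sample and the array in each pool, so their common order is 1 observation per pool and not 33.

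Expressed against the irradiated mean, unirradiated pool 1 held a median of 0.0632% of the signal of these 33 genes, pool 2 held 7.40% and pool 3 held 1.29%. Pool 2 exceeded pool 3 by a median log2 difference of 2.42, with a spread over genes from 1.14 (Cela1) to 4.05 (Reg2). The irradiated mean exceeded pool 2, the highest unirradiated pool, by a median of 3.76, from 1.82 (Amy2a5) to 4.84 (Pnliprp2). In 10 genes (Cela2a, Prss1, Try4, Pnlip, Pnliprp2, Pla2g1b, Serpini2, Tff2, Reg1 and Reg2) the probe was not well above background in pool 1 alone, and there the low value is near the limit of the array.

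**Figure D2:**
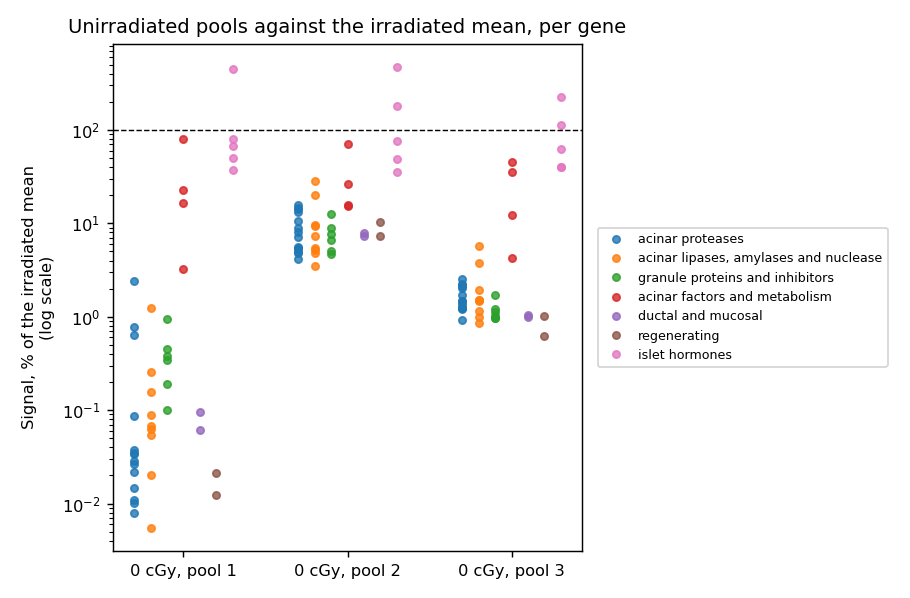
Signal of each tested pancreas gene in each unirradiated pool as a percentage of its mean over the 3 irradiated pools (vertical axis, log scale), coloured by class; the dashed line is 100%. Enzyme, granule, ductal and regenerating genes lie lowest in pool 1 and highest in pool 2, with medians of 0.0632%, 7.40% and 1.29% in pools 1, 2 and 3, while the tested islet hormones lie between 35.2% and 472%.

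The acinar proteases had the larger median change of the 2 enzyme classes. These are the carboxypeptidases, chymotrypsins, elastases and trypsins that digest dietary protein. All 14 rose, with a median log2 change of 7.05 and adjusted p between 0.000113 and 0.0445. Cpa1, carboxypeptidase A1, measured -4.59, 4.33 and 1.49 in unirradiated pools 1, 2 and 3 and 7.53, 7.76 and 7.38 in irradiated pools 1, 2 and 3. The unirradiated values spread over 8.92 log2 units and the irradiated ones over 0.38, and the groups did not overlap. The change was 7.15 ± 2.09 (SE, n = 3 pools per group), with an adjusted p of 0.0247. Cpb1, carboxypeptidase B1, followed the same course, at -4.21, 3.50 and 1.12 against 7.15, 7.57 and 7.24.

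The elastase gene Cela1 differed least between the unirradiated pools. It measured 0.65, 1.87 and 0.73 without irradiation and 5.77, 6.44 and 5.85 with it, so that pool 2 was again the highest in both groups, and the unirradiated range of 1.22 was the narrowest of the 33 genes. Its change of 4.93 ± 0.36 (SE, n = 3 pools per group) is 30.6-fold, with an adjusted p of 0.000113. Cela2a, a further elastase, measured -8.26, 0.76 and -1.40 against 5.21, 5.71 and 5.13. Its first value was not well above background, so the fitted change of 8.32 ± 2.16 has no fixed rank among the genes. The chymotrypsin-like gene Ctrl measured -1.64, 0.995 and -0.71 against 5.35, 5.72 and 5.02, a change of 5.81 ± 0.64. The tissue kallikrein Klk1, which is not limited to pancreas, had a like course at -2.80, 0.15 and -1.03 against 4.42, 4.89 and 4.15. Cela1, Ctrl and Klk1 were the 3 proteases with an unirradiated range under 4 log2 units.

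The trypsinogens Try4 and Try5 had unirradiated ranges of 10.49 and 10.06, the lowest Try4 value being not well above background. Prss1 measured -7.69, 1.24 and -0.86 in unirradiated and 5.30, 5.92 and 5.22 in irradiated pools, a change of 7.92 ± 2.15 (SE, n = 3 pools per group). Try4 measured -5.85, 4.64 and 1.86 against 7.39, 7.57 and 7.30. It passed narrowly, at an adjusted p of 0.0445, and so did Try5, at 0.0430. The others of the class were Prss2 (change 7.34), Ctrc (6.71), Ctrb1 (6.60), Cela3a (6.85) and Cela3b (7.21).

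Several of these proteases come from near-identical copies that lie side by side in the genome, and their probes can share sequence. The closest pairs of probes were found by sliding each 60-base probe against the others. For Try4 and Try5, 43 of 45 overlapping bases were identical, and for Amy1 and Amy2a5 39 of 46. Below are the probes of 2 pairs as designed, with capitals where the overlapping parts differ. They are examples of how much sequence such probes can share. The Cela3a and Prss1 probes printed are the second probes of those genes and not those reported above. The positions are on mm9, at chr4:136959734-136959793 and chr4:136979192-136979251 for the elastases and chr6:41412628-41412687 and chr6:41473937-41473996 for the trypsinogens.
Cela3a: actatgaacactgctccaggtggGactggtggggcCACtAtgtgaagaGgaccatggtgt
Cela3b: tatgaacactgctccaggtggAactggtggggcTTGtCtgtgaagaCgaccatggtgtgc
Prss1: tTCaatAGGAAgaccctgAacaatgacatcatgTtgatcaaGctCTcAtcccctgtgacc
Prss2: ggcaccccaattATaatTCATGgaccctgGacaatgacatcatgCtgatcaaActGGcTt
The elastase probes were identical at 52 of 58 overlapping bases and the trypsinogen probes at 36 of 49. Signal shared between such copies was not tested. Values of Cela3b, Prss2, Try4, Try5, Amy1 and Amy2a5 are uncertain as to the copy, as are those of the second Cela3a and Prss1 probes. The reported Cela3a and Prss1 probes were not the ones matched here, and how far they tell the copies apart was not tested either. The second probe of Cela3a gave a change of 7.22 and that of Prss1 6.60, in the same direction as the reported probes.

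**Figure D3:**
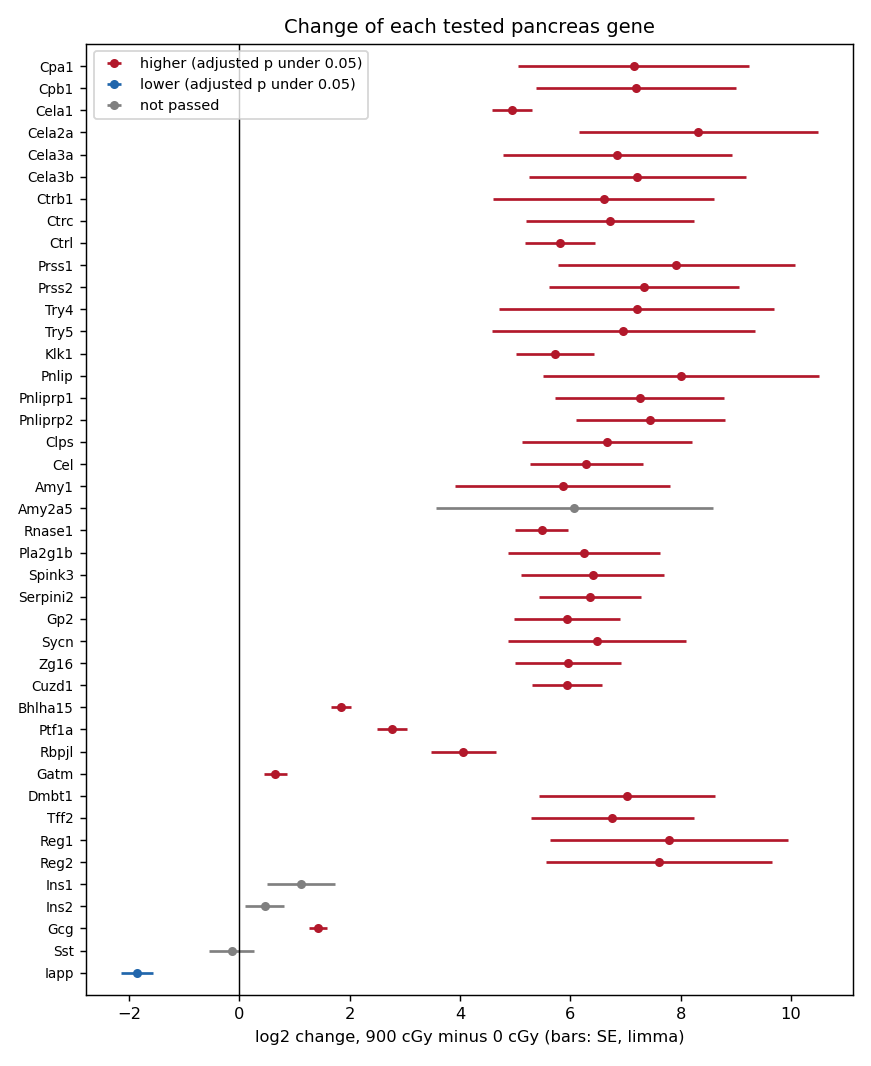
Log2 change, 900 cGy minus 0 cGy, of each tested pancreas gene (points) with its standard error (bars, limma, n = 3 pools per group), coloured by whether it passed an adjusted p of 0.05. Enzyme genes lie between 4.93 and 8.32, the acinar factors and Gatm between 0.65 and 4.06, and the islet hormones between -1.86 and 1.42.

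Of the 9 genes for fat, starch and RNA digestion 8 rose, with a median of 6.28. Pnlip, pancreatic lipase, measured -7.12, 3.26 and 0.97 in unirradiated and 6.95, 7.24 and 6.92 in irradiated pools. The first value was not well above background, and the change was 7.999 ± 2.499 (SE, n = 3 pools per group; adjusted p = 0.0313). Its cofactor colipase, Clps, rose by 6.66 and the bile salt-stimulated lipase Cel by 6.28. The lipase-related genes Pnliprp1 and Pnliprp2 rose by 7.26 and 7.45, and the amylase Amy1 by 5.86. Rnase1, the pancreatic ribonuclease, had the narrowest unirradiated spread here, at -3.29, -1.33 and -2.63 against 2.79, 3.47 and 2.92, a change of 5.48 ± 0.49.

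Amy2a5, a pancreatic amylase, was the gene of this class that did not pass. The reported probe measured -4.34, 6.10 and 3.79 in unirradiated and 7.89, 7.89 and 7.98 in irradiated pools, so the groups did not overlap, and the difference of 6.07 ± 2.51 (SE, n = 3 pools per group) had an adjusted p of 0.0785. The irradiated values of this bright probe lay within 0.09 of each other, and unirradiated pool 2 reached 28.4% of the irradiated mean. The dimmer second probe measured -5.41, 1.48 and -0.19 against 6.11, 6.77 and 6.52, where pool 2 reached 3.16%. With the mean over both probes the gene passed, at 6.95 and an adjusted p of 0.0271, and it also passed with spike-in scaling, with both normexp settings and without unirradiated pool 1 or pool 2.

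The probes of Pla2g1b, pancreatic phospholipase A2, disagreed. The reported one measured -6.44, -0.48 and -3.15 against 2.69, 3.30 and 2.68, a change of 6.25 ± 1.38 (SE, n = 3 pools per group; adjusted p = 0.00812). The other, designed to a cDNA clone, measured -2.15, -2.40 and -3.50 against -3.85, -3.06 and -3.53, a difference of -0.80 that was not tested on its own. Of the 8 genes with 2 probes, this was the only one whose probes differed in sign.

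All 6 genes of zymogen granule proteins and inhibitors rose, with changes between 5.94 and 6.48. Sycn, the granule protein syncollin, measured -2.82, 4.17 and 0.69 in unirradiated and 7.03, 7.52 and 6.93 in irradiated pools. Zg16, which lies at the granule membrane, measured -1.08, 2.99 and 0.31 against 6.57, 7.02 and 6.48. Both had the order of pools seen in the enzymes. Gp2, the main membrane glycoprotein of the granule, rose by 5.94 ± 0.96 (SE, n = 3 pools per group) and Spink3, the trypsin inhibitor that guards against early activation, by 6.40 ± 1.29. The serpin Serpini2 rose by 6.36 and Cuzd1, a granule membrane protein, by 5.94. Cuzd1 was well above background in just 1 of the unirradiated pools, pool 2, at -4.11, and reached -0.04, 0.77 and 0.23 after irradiation.

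Dmbt1 and Tff2, classed here as ductal and mucosal, and the regenerating genes went with the enzymes. They do not stand for duct genes in general. The separate duct list below had a median change of 1.01, and 1 of its 14 tested genes had the enzymes' order of unirradiated pools. Dmbt1, a mucosal scavenger protein, measured -5.31, 1.59 and -1.29 in unirradiated and 5.21, 5.69 and 5.15 in irradiated pools, a change of 7.02 ± 1.60 (SE, n = 3 pools per group; adjusted p = 0.00916). Tff2, a trefoil peptide of mucous cells, measured -6.64, -0.25 and -3.19 against 3.32, 3.82 and 3.06, a change of 6.76 ± 1.48.

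Reg1 and Reg2 encode small secreted lectin-like proteins that acinar cells make in increased amounts when the pancreas is injured. Reg1 measured -6.38, 2.80 and -0.05 in unirradiated and 6.29, 6.79 and 6.66 in irradiated pools, a change of 7.79 ± 2.16 (SE, n = 3 pools per group; adjusted p = 0.0200). Reg2 measured -7.60, 1.31 and -2.74 against 4.64, 4.50 and 4.63, a change of 7.60 ± 2.05. The irradiated pools differed by 0.15 in Reg2, and pool 2 was the lowest there. Reg2 and Amy2a5 were the only genes of the 33 in which irradiated pool 2 was not the highest. In Reg1 and Reg2 the value of unirradiated pool 1 was not well above background.

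The transcription factors and Gatm changed by less, with a median of 2.30, and differed less between the unirradiated pools. Ptf1a, which starts the acinar program, measured -5.62, -5.71 and -6.06 in unirradiated and -2.96, -2.54 and -3.60 in irradiated pools. The unirradiated pools were alike and the groups did not overlap, for a change of 2.76 ± 0.28 (SE, n = 3 pools per group; adjusted p = 0.000312). Rbpjl, its partner in the PTF1 complex, measured -4.91, -2.67 and -4.51 against -0.19, 0.56 and -0.27, a change of 4.06 ± 0.59 (adjusted p = 0.00140). On this probe Rbpjl was the only gene of the 4 with the pool order of the enzymes. Its dimmer second probe measured -4.93, -4.69 and -4.97 against -2.30, -1.70 and -2.50, a difference of 2.69 that was not tested on its own. There unirradiated pool 3 was the lowest, so the second probe did not have the enzymes' order.

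Bhlha15, which drives granule maturation in acinar cells and is also known from plasma cells, measured -0.91, -0.70 and -0.28 in unirradiated and 1.13, 1.43 and 1.08 in irradiated pools. Pool 3 was the highest of the unirradiated pools, and the change was 1.84 ± 0.19 (SE, n = 3 pools per group; adjusted p = 0.000316). On the same arrays 9 of 11 plasma cell genes rose and 2 fell, with a median of 1.17, the leading ones being Derl3 (1.72), Tnfrsf17 (1.55) and Jchain (1.43). Their summed linear level was 116 to 153 in unirradiated and 254 to 277 in irradiated pools, none had the enzymes' order of pools, and their part in the change of Bhlha15 was not tested. Gatm, an enzyme of creatine synthesis that other tissues also express, measured 0.95, 0.77 and 0.14 against 1.32, 1.31 and 1.18. Its change of 0.65 ± 0.21 (adjusted p = 0.0360) was 0.36 with spike-in scaling, at an adjusted p of 0.178, and it kept its call in 10 of 18 alternatives. It also did not pass when dim probes were kept, with the slide row block or within row 1, or without unirradiated pool 2 or any 1 irradiated pool, at adjusted p between 0.0582 and 0.184.

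The stretches just before the start sites of the pancreas genes were read from RefSeq (GRCm38.p6), in which 35 of the 43 genes had an entry. The PTF1 complex binds an E-box (CACCTG) followed by a TC-box (TTTCCC), and TATAAA is the core of the TATA box. Each was searched on both strands in the 250 bases before the start, and the 3 motifs do not overlap in sequence. Capitals mark their matches in 4 promoters, chosen to show both PTF1 elements (Cela1 and Prss1), neither of them (Amy2a5) and an islet gene (Gcg). The positions are chr15:100687921-100688170 on the minus strand, chr6:41458680-41458929 on the plus strand, chr3:113258700-113258949 on the minus strand and chr2:62483654-62483903 on the minus strand.
Cela1: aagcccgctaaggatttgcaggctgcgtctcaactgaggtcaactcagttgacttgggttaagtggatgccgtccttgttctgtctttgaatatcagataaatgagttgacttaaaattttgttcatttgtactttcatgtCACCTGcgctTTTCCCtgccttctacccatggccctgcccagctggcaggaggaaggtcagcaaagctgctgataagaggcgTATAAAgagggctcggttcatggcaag
Prss1: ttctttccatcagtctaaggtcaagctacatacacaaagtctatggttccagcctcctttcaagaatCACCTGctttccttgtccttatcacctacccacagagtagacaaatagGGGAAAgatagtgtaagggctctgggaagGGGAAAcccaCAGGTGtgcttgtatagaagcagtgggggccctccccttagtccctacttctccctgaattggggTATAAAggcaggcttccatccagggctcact
Amy2a5: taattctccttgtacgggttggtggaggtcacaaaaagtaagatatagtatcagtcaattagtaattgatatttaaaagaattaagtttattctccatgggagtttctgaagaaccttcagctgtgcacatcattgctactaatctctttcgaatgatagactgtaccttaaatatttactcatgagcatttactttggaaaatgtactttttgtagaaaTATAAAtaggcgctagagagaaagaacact
Gcg: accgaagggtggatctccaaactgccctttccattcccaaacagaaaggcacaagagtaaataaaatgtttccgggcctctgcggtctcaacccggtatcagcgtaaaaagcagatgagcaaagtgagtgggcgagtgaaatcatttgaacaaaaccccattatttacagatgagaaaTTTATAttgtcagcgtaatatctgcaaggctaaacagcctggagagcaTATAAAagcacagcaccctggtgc

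In Cela1 the E-box starts at base -109 and the TC-box at -99, with 4 bases between them, and TATAAA starts at -27. In Prss1 an E-box and a TC-box, both on the minus strand, begin at -96 and -106 counted along the printed strand, also with 4 bases between them. CACCTG was found in 17 of the 30 promoters of members other than islet hormones (56.7%) and in 17.1% of all 27025 promoters of that length. TTTCCC was found in 9 (30.0%, against 21.9%), TATAAA in 10 (33.3%, against 13.0%), and CACCTG together with TTTCCC in 6 (20.0%, against 3.63%). Of the 5 islet promoters 1 held CACCTG, none held TTTCCC and 2 held TATAAA. These are matches of letters in a window, and binding was not measured. The joint count did not require an order or spacing of the boxes. The genes were chosen as pancreas genes, and the relation of their motifs to the change after irradiation was not tested.

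The islet hormones did not follow the exocrine genes. Of the 5 tested 1 rose (Gcg), 1 fell (Iapp) and 3 did not pass, with a median difference of 0.46. Ins1, a mouse insulin gene, measured -4.11, -4.16 and -4.41 in unirradiated and -3.85, -1.57 and -3.91 in irradiated pools. Irradiated pool 2 stood apart, the other irradiated pools were close to the unirradiated ones, and the difference of 1.11 ± 0.62 (SE, n = 3 pools per group) had an adjusted p of 0.167. Without that pool it was 0.35. Ins2, the other insulin gene, was likewise highest in irradiated pool 2, at -2.55, -2.63 and -2.91 against -2.72, -1.41 and -2.60, with overlapping groups (difference 0.46 ± 0.35, adjusted p = 0.303). Irradiated pool 2 was also the highest for 31 of the 33 secreted exocrine genes, against 32.5% of all genes. It was so for 8 of the 10 adipocyte genes, 6 of the 7 mesothelium genes and 8 of the 19 further islet genes. For the plasma cell genes it was so in 3 of 11, for the spleen markers in 1 of 12 and for the other Reg genes in none of 4. Among the 5 tested hormones it was the highest in 3, but not in Sst or Iapp. Whether these patterns share a cause was not tested.

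Gcg, the glucagon gene, failed the scanner's background test in each unirradiated pool, at -7.44, -7.52 and -7.34, and measured -5.94, -5.76 and -6.34 after irradiation. It was at least 2.33-fold higher, with an adjusted p of 0.000491. Iapp, the gene of the beta cell peptide amylin, went the other way, from -4.12, -4.05 and -5.12 to -6.23, -6.30 and -6.33, where it failed the background test in each pool. It was at least 3.63-fold lower, with an adjusted p of 0.00174. Such bounds compare the bright group's mean with the higher, on each array of the dim group, of its own signal and the lowest signal well above background. Over the alternatives the log2 change of Gcg went down to 0.24 and that of Iapp to -0.50, so the bounds hold for this processing only. Sst, the somatostatin gene, measured -6.39, -4.97 and -5.65 against -6.44, -5.53 and -5.47, with overlapping groups (difference -0.14, adjusted p = 0.786).

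Other genes of the islet gave a mixed picture. Of 29 on the array 19 were tested, of which 6 rose, 2 fell and 11 did not pass, with a median of 0.01. Over all genes tested, 28.3% rose and 31.0% fell, so the share that rose was near that of all genes and the share that fell was lower. Among those that rose were Ttr, the thyroxine carrier transthyretin (at least 5.81-fold higher), and the granin Chgb (log2 change 1.30). Neurod1, Pax6, Slc30a8, G6pc2, Slc2a2, Scg2 and Scgn, which mark islet or other endocrine cells, exceeded background by the scanner's test nowhere.

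**Figure D4:**
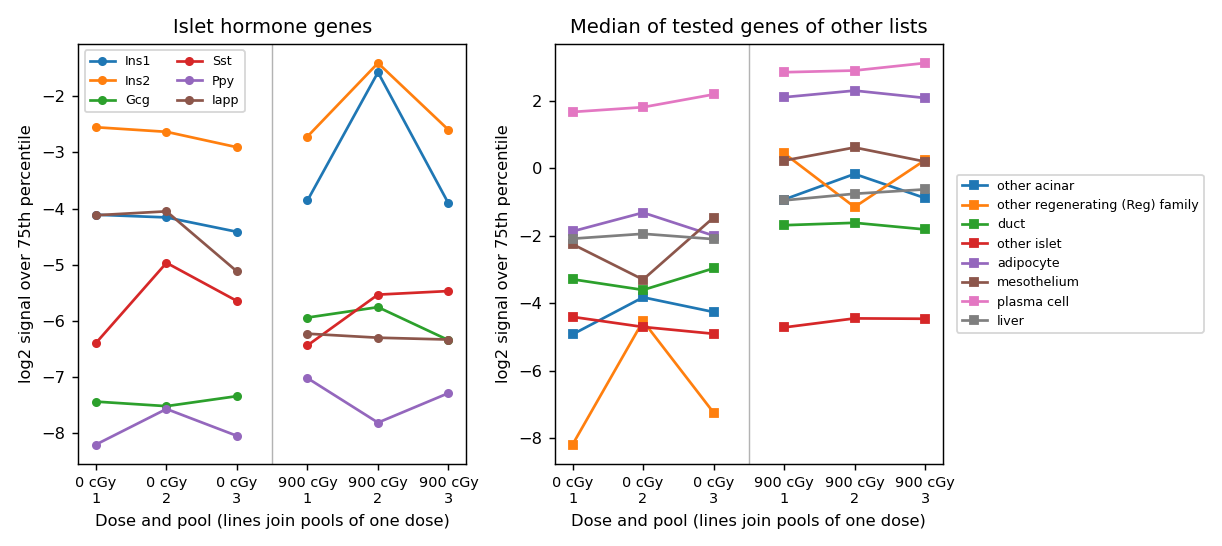
Left, log2 signal over the array's 75th percentile of the 6 islet hormone genes in each pool, Ppy being below background on all arrays; right, the median of the tested genes of 8 further lists in each pool. Lines join pools of 1 dose and stand for no order. Ins1 and Ins2 are highest in irradiated pool 2. Of the 8 list medians, all but that of the further islet genes are higher in all irradiated pools than in any unirradiated one.

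Further acinar genes also rose, with a smaller median change than the main set. All 16 tested of 17 on the array rose, with a median of 2.52 and changes from 0.71 to 7.45, those at the upper end including the trypsinogen-like Gm5771 (7.45) and the trypsin-like 2210010C04Rik (5.59). Gm5771 measured -5.52, 0.05 and -3.38 in unirradiated and 4.59, 4.88 and 4.02 in irradiated pools, the pool order of the enzymes, which 8 of the 16 showed. Among the other Reg genes all 4 tested rose, with a median of 5.92. Reg3b changed by 7.57, Reg3g was at least 46.5-fold higher and Reg3a changed by 5.45. In Reg3b, Reg3g and Reg3a the irradiated pool 2 was the lowest and not the highest. Reg3b measured 1.85, 0.36 and 1.44 in irradiated pools 1, 2 and 3, and Reg3g -1.30, -3.50 and -1.03. Reg3d, the other one tested, measured 2.16, 2.18 and 2.30 there, with pool 2 in the middle.

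Genes of duct cells had a smaller median change than the acinar genes. Of 16 on the array 14 were tested, 9 rose, 1 fell and 4 did not pass, with a median of 1.01. Krt8, a simple-epithelium keratin, rose by 3.97, from -3.28, -3.91 and -3.30 to 0.77, 0.42 and 0.21. The keratins Krt8, Krt19 and Krt7 were lowest in unirradiated pool 2, where most of the mesothelium genes below were lowest too, and Krt18 was highest there. Which cells gave the keratin signal was not tested. Onecut1 was at least 7.54-fold higher. Car2, a carbonic anhydrase that red cells also make, fell by 4.62 on the log2 scale. Just 1 of the 14 had the enzymes' order among unirradiated pools, and the duct chloride channel Cftr did not pass the filter on dim probes.

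Genes of other tissues near the spleen also differed between the groups, and their part in the results above was not tested. All 10 adipocyte genes rose, with a median of 3.45, led by Cidec (4.58), Adipoq (4.04) and Cfd (3.81). Their summed linear level was 7.96 to 12.1 in unirradiated and 105 to 113 in irradiated pools. All 7 mesothelium genes rose, with a median of 2.55, led by Upk1b (3.03), Muc16 (2.90) and Bnc1 (2.63), and their summed level went from between 3.44 and 6.97 to between 22.4 and 26.8. Unlike the enzymes, 6 of the 7, all but Wt1, were lowest in unirradiated pool 2. None of the mesothelium genes and 6 of the 10 adipocyte genes had the enzymes' pool order, in the latter over a median range of 0.70.

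The stomach, intestine and salivary lists held 1 gene that rose, and the liver list held 5, where 28.3% of all genes rose and 31.0% fell. Of 6 stomach genes none rose and 2 fell, Atp4a (-1.20) and Gkn3 (-0.50), and their summed level was 0.406 to 0.611 in unirradiated and 0.367 to 0.427 in irradiated pools. Of 6 intestinal genes Fabp2 rose (1.19) and Sis (-0.87) and Guca2a (-0.48) fell. Neither of the 2 salivary genes tested passed (Bpifa2 0.37, Prb1 -0.01). Of 8 liver genes 5 rose and 1 fell, led by Ttr, Cyp2e1 (3.42) and Ahsg (-1.88). Their summed level was 41.8 to 46.9 in unirradiated and 113 to 123 in irradiated pools, their part in the results above was not tested, and Alb, the albumin gene that defines liver, did not pass the filter in either group.

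The calls rest on few pools. Slide row 1 held the 3 unirradiated arrays and irradiated pool 1, and row 2 held irradiated pools 2 and 3. With the row as a block 14 genes rose and within row 1 alone 13, with a median change of 6.14 in both cases, against 5678 and 4468 of all genes in place of 7537. Those that kept their call as higher under every alternative that tested them were Cela1, Ctrl, Klk1, Cel, Rnase1, Serpini2, Gp2, Zg16, Cuzd1, Bhlha15, Ptf1a, Rbpjl and Gcg. Without unirradiated pool 1 the median change of the 42 genes was 4.91, and without pool 2 it was 8.03.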

How the data were processed

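Total RNA of homogenised spleen was labelled with Cy3 and hybridised to 6 Agilent 1-colour arrays, all on 1 slide in 1 scan. Per the file headers, Feature Extraction 10.5.1.1 gave the deposited intensity values of 62976 spots, background-subtracted and not scaled between arrays, with weak spots set to a surrogate, so that low values have compressed or unreliable folds. The log2 values of the authors' deposited table matched the scanner intensities after 75th percentile scaling and subtraction of every probe's median over the arrays, in the same direction (Pearson r at least 0.99996 on each array). Its column medians were 0.047, -0.0059 and -0.046 for unirradiated and -0.025, 0.018 and -0.0083 for irradiated pools, and it served as an alternative.

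Control and outlier spots were left out, spots of 1 probe were averaged, and the processed signal was divided by the array's 75th percentile and put on the log2 scale. A gene is its brightest probe by mean, kept if well above background on all 3 arrays of a group. Genes were named through accession (27235 probes), symbol (3581) or synonym (565) in RefSeq GRCm38.p6, and 24300 probes kept the name in the files. Spink3 is Spink1 in that table. Probe positions are mm9. Groups came from the sample titles and were compared by a two-sided test in limma 3.58.1 with R 4.3.3 (lmFit, then eBayes), adjusted by Benjamini-Hochberg over the 26652 genes, threshold 0.05, after the code was tested on simulated data. Precision is limited by there being 3 arrays per group. The test takes 1 spread per gene for both groups. For the 33 secreted, granule, ductal and regenerating genes the median range was 6.90 in unirradiated and 0.54 in irradiated pools. The SE and p of such genes therefore describe the spread of neither group.

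The genes followed and the lists were chosen with earlier results of these data known. All genes of the set are named; of each other list, the 3 with the largest change among those that passed, or the 2 largest where none passed. Results of a few genes that this rule took are left out here. Genes named beyond this (as exceptions, as defining markers, or for their order of pools) were chosen after their values were seen. Alternatives were other scalings, background corrections, filters and probe rules, the deposited table, blocks and leaving out each array.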

Additional observations from a re-analysis of the deposited data

How the results depend on the processing

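Of 18 alternatives, 17 were listed at the outset of this work and robust empirical Bayes was chosen after seeing the data. The count of 37 pancreas genes that rose was 14 with slide row as a block and 13 within slide row 1, which holds 1 irradiated array, and otherwise 25 (29 genes tested, well above background on all 6 arrays) to 38. Leaving out 1 array gave 26 to 38, with 26 without irradiated pool 2, 29 without pool 1 and 28 without pool 3. The 1 gene that fell, Iapp, is not tested when all 6 arrays must be above background, where the count is 0. The median change of 6.38 ranged from 4.91 to 8.03 when 1 array was left out. No gene with a call reversed, and 15 of the 42 kept their call in every alternative that could test them. Among genes without a call, Ins2 was -0.019 with the slide row block and within row 1, and Sst, -0.14 with all arrays, was 0.21 without unirradiated pool 2 and 0.17 without irradiated pool 1, in a range from -0.51 to 0.21 when 1 array was left out. The cause was not tested. Spike-in scaling moved the median of all genes from -0.06 to -0.34 and the calls over all genes from 7537 higher and 8257 lower to 4800 and 10878; 37 pancreas genes rose there too. With the replicate number as a block 37 genes rose and the median was 6.38. Deviations of same-numbered pools correlated across genes at 0.073, 0.118 and -0.0023, and those of differently numbered pools at -0.136 to 0.066. These values gave no sign that the numbers pair the pools, and with 3 pools per group they cannot exclude it. The 88 calls in the other lists were 69 to 90 over the alternatives. The lowest and highest leave-one-out counts were 79 and 90 there, and 1 for Iapp throughout. In unirradiated pool 1, probes near background limit how low a level can be read.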

Other observations

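Outside the pancreas set and the other lists, 3 features had an unirradiated range of at least 4 log2 units, and all 3 were higher after irradiation. The transcript cluster TC1733495 measured -3.89, 3.20 and 0.97 in unirradiated and 6.69, 6.95 and 6.81 in irradiated pools, in the order of pools that the pancreatic enzymes had (limma log2 change 6.73 ± 1.66 SE, n = 3 pools per group, adjusted p = 0.0129). Gm5409 measured -8.29, -3.97 and -6.25 against 0.42, 0.36 and -0.19, in the same order (change 6.37 ± 1.01). The probe A_55_P2078438, which has no gene name in the sources used here, measured -8.13, -4.10 and -8.50 against -0.19, 0.50 and -0.02, with unirradiated pool 3 the lowest (change 7.01 ± 1.13). They were singled out by their range, so their values are a description.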
